A study of Mus musculus with 4 samples.

Results

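Adra1b, Chrm3, Agtr1a and Ptafr encode 4 cell-surface receptors for transmitters, a peptide hormone and a lipid messenger, none of them the nicotinic receptor of the motor endplate, and their RNA was examined in denervated mouse tibialis anterior (TA) muscle. They were taken by symbol from the count table, in which all 4 were present among 13825 genes. They were picked with their values known, because Adra1b and Chrm3 were much higher and Agtr1a lower after denervation, and because Ptafr differed between denervated genotypes. Their levels are therefore a description, without a test.

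Adult male mice were compared, either wild type (WT, C57BL/6J in the study's methods) or lacking Fgf21 in the whole body (Fgf21KO, a global knockout whose strain background is not given in the sources used here). Denervation was by cutting the left sciatic nerve, and the TA muscles were taken on day 14. The sources describe the control leg differently. The design text has the right leg left innervated, while the methods have it operated in the same way without transection. RNA of 4 muscles was pooled for each condition and sequenced as 1 library, which gave a sham and a denervated library of WT muscle (WS and WD) and of Fgf21KO muscle (KS and KD). No group has a second library, so differences between groups could not be set against a spread of replicates. Intervals below (95%) cover counting error only, not how mice vary. Library totals over the genes analysed here ran from 25249879 to 34141303 counts. Of the fibre markers listed, only Mylpf, a fast-fibre myosin light chain, was analysed here, with 171950 to 299459 counts per library. The denervation-responsive fibre genes Ncam1 and Gadd45a were 10-fold or more higher in WD than in WS. Fgf21 itself was not analysed here, so these counts give no check of the knockout.

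The 4 proteins are G protein-coupled receptors. Adra1b (alpha-1B adrenergic receptor) answers noradrenaline and adrenaline, Chrm3 (muscarinic M3 receptor) answers acetylcholine, Agtr1a answers angiotensin II, and Ptafr answers the phospholipid platelet-activating factor. The first 3 are known to couple mainly to Gq, which activates phospholipase C, releases calcium from stores through inositol trisphosphate receptors and activates protein kinase C. Ptafr is known from macrophages, neutrophils and platelets, and couples to Gq and Gi. In muscle, alpha-1 adrenergic and angiotensin receptors are best known from the smooth muscle of blood vessels, where they drive constriction.

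Adra1b was nearly silent in sham muscle and readily measured after denervation. Its count went from 2 (WS) to 283 (WD) in WT muscle and from 5 (KS) to 213 (KD) in Fgf21KO muscle. Divided by the TMM-scaled library total and given as CPM, these were levels of 0.0861 and 8.67 in WT muscle and of 0.168 and 6.88 in Fgf21KO muscle. Both sham libraries were low and both denervated libraries high, the contrast on which the gene was picked. The ratio of WD to WS was 101 (interval 27.6 to 836) and that of KD to KS was 40.9 (17.3 to 127). The WS count lay below 3, the smallest count treated as measurable, so the size of the WT ratio is poorly fixed. On the log2 scale with a prior count of 2 the ratios were 5.82 and 4.87, and ranked 8 and 18 from the top among 13084 genes tested in WT and Fgf21KO muscle. The authors listed only genes with at least 1 read in each library, so genes without sham reads are missing from this ranking. Between denervated libraries, KD was slightly lower than WD, with a ratio of 0.794 (0.662 to 0.952). Fgf21KO minus WT, the denervation log2 ratios differed by -0.94 with the prior count and by -1.30 in the conditional estimate, whose counting interval from -4.70 to 1.33 includes 0.

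Chrm3 went the same way. Sham against denervated, it had 5 and 111 counts in WT and 10 and 190 in Fgf21KO muscle, or 0.215 and 3.40 CPM and 0.337 and 6.14 CPM. Both sham libraries were again below both denervated ones, the contrast on which Chrm3 too was picked. WD was 15.8-fold above WS (6.57 to 49.6), and KD was 18.2-fold above KS (9.71 to 38.7). The log2 ratios with a prior count of 2 were 3.61 and 3.94. KD held more Chrm3 than WD, with a ratio of 1.81 (1.42 to 2.30). The ratio of KS to WS was of similar size, at 1.56, but rested on 10 and 5 counts, and its wide interval (0.487 to 5.83) included no change. The genotype difference in the denervation log2 ratio was 0.33 with the prior count and 0.21 in the conditional estimate (interval -1.73 to 1.94).

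**Figure D1:**
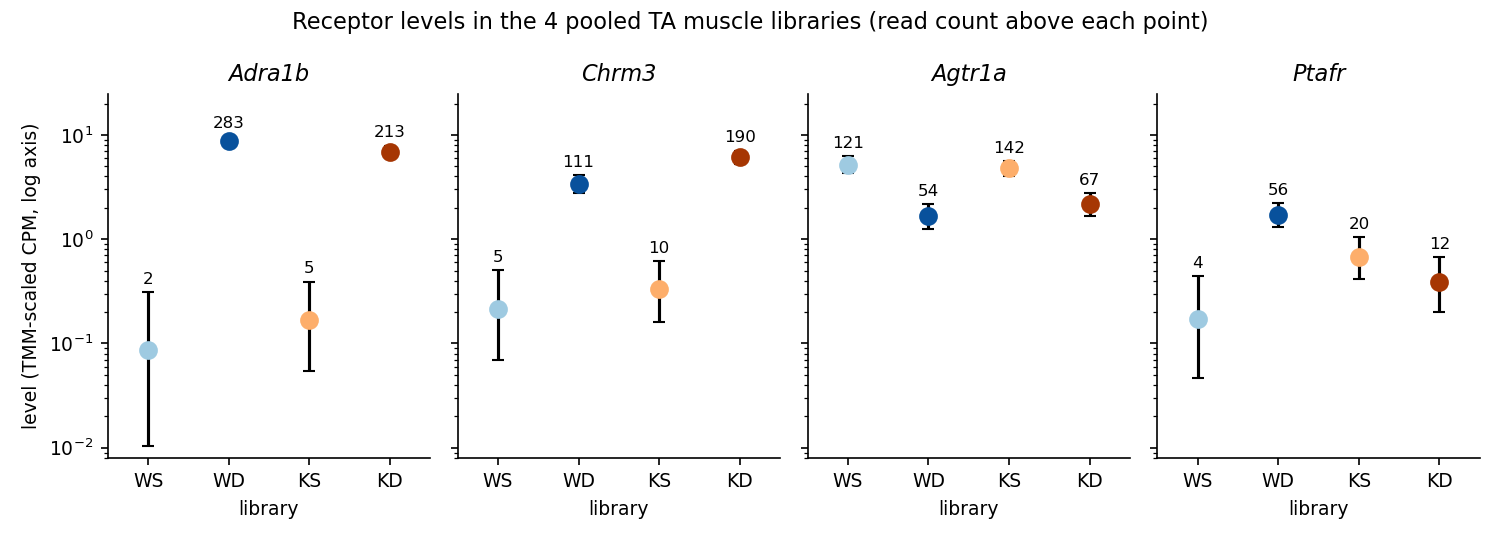
Level of each receptor gene in the 4 pooled libraries (x axis), as TMM-scaled CPM on a log axis, with the read count above each point and 95% counting intervals as bars. Adra1b and Chrm3 are high in WD and KD, Agtr1a is high in WS and KS, and Ptafr is highest in WD.

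In GENCODE M21 (GRCm38), Adra1b lies on chromosome 11 from 43774606 to 43901210, Chrm3 on chromosome 13 from 9875486 to 10360847, both on the minus strand, Agtr1a on chromosome 13 from 30336441 to 30382867 and Ptafr on chromosome 4 from 132564067 to 132582683, both on the plus strand. All 4 are protein-coding. The submitters' processing notes name GRCm39, and the count table carries no coordinates. An antisense gene, Gm26861, overlaps the 5′ end of Chrm3 on the opposite strand. The library kit keeps strand, but the strand setting of the counting is not given in the sources used here. RefSeq promoter sequences (GRCm38.p6) were found for 3 of the 4 genes. The bases before the annotated start are shown for the genes that were higher after denervation in at least 1 genotype, and Adra1b has 2 starts. The E-box CANNTG (bound by myogenic factors such as myogenin), the AP-1 motif TGANTCA, the cAMP response element TGACGTCA, the RUNX motif TGTGGT, the MEF2 consensus and the CArG box were searched on both strands of 250 bases, and matches are in capitals.
Adra1b, distal start, chr11:43901238-43901487, minus strand: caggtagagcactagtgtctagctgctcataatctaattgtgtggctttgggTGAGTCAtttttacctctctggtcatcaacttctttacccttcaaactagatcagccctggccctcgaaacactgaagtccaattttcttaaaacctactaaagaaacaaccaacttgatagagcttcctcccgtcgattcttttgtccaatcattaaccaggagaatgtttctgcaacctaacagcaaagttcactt
Adra1b, proximal start, chr11:43836490-43836739, minus strand: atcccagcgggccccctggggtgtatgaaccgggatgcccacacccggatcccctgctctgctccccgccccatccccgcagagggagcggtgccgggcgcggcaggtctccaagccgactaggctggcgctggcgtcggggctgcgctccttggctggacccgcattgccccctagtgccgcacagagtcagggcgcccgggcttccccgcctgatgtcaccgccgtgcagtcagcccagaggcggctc
Chrm3, chr13:10360848-10361053, minus strand: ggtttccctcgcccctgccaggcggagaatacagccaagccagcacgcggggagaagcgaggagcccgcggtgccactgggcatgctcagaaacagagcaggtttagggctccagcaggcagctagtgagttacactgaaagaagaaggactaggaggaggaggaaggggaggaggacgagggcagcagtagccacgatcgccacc
Ptafr, chr4:132563817-132564066, plus strand: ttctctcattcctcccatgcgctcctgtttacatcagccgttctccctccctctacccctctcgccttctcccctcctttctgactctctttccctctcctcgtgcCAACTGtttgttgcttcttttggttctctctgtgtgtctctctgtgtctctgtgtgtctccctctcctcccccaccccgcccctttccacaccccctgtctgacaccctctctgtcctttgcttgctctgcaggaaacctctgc
For Chrm3, 44 bases that GENCODE M21 places in an exon were left out of the sequence shown, but were included in the motif search and the GC content.

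The letters differed between these windows. The distal Adra1b window held 1 AP-1 match, from 198 to 192 bases before the start, which 6.75% of 32851 RefSeq promoters of this length hold. The Ptafr window held 1 E-box, from 144 to 139 bases before the start, as do 66.2% of promoters. The other windows held no match to any of the motifs. GC content was 41.6% at the distal and 72.8% at the proximal Adra1b start, 61.2% for Chrm3 and 56.0% for Ptafr, against a median of 52.4% over all promoters. The count table does not show which Adra1b start was used.

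Agtr1a went the other way. Sham against denervated, it had 121 and 54 counts in WT and 142 and 67 in Fgf21KO muscle, or 5.21 and 1.65 CPM and 4.78 and 2.17 CPM. Both denervated libraries lay below both sham libraries, again the contrast on which the gene was picked. The ratio of WD to WS was 0.318 (0.226 to 0.441) and that of KD to KS was 0.453 (0.334 to 0.610), or -1.62 and -1.12 on the log2 scale with the prior count. The genotype difference of these log2 ratios was 0.50 with the prior count and 0.51 in the conditional estimate (interval -0.14 to 1.17). With total counts only as the scaling, the value in Fgf21KO muscle was -0.77, less than a 2-fold difference. Neither genotype comparison stood beyond counting error, at 0.918 for KS over WS (0.715 to 1.18) and 1.31 for KD over WD (0.901 to 1.91). Mice carry a near-identical copy of this receptor, Agtr1b, which was not analysed here. Reads could be split between the copies, so the level of Agtr1a is uncertain.

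Ptafr differed from the others in that its order depended on the genotype. Sham against denervated, it had 4 and 56 counts in WT and 20 and 12 in Fgf21KO muscle, or 0.172 and 1.72 CPM and 0.673 and 0.388 CPM. WD was the highest library and WS the lowest, with both Fgf21KO libraries between them. In WT muscle the denervated library was 9.96-fold above sham (3.68 to 37.8). In Fgf21KO muscle the ratio was 0.576 (0.257 to 1.24), and its interval includes no change. Ptafr was 3.91-fold higher in KS than in WS (1.31 to 15.7) and 4.42-fold higher in WD than in KD (2.34 to 9.06). Fgf21KO minus WT, the denervation log2 ratios differed by -3.59 with the prior count, and by -4.04 in the conditional estimate (counting interval -6.30 to -2.17). That difference between genotypes could not be tested, since each combination of genotype and surgery is 1 library, and all 4 counts were small.

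These values can be set against all 13084 genes tested, the genes that averaged 10 counts or more per library. In WT muscle, WD vs WS, 7.18% of them were at least 2-fold higher, as were Adra1b, Chrm3 and Ptafr, and 7.61% were at least 2-fold lower, as was Agtr1a. In Fgf21KO muscle, KD vs KS, the shares were 7.51%, with Adra1b and Chrm3, and 6.1%, with Agtr1a. The genotype comparisons held few such genes. In KS vs WS 0.887% were at least 2-fold higher, Ptafr among them, and 1.15% were lower, with none of the 4. In KD vs WD the shares were 0.841% and 0.711%, with none of the 4 higher and Ptafr lower. Since the 4 genes were picked from these contrasts, nothing is read from their counts or from the separation of sham and denervated libraries. The share of all genes whose libraries separate in that way was not counted. KS vs WS and WD vs WS share the WS library, and KD vs WD shares 1 library with each denervation comparison.

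**Figure D2:**
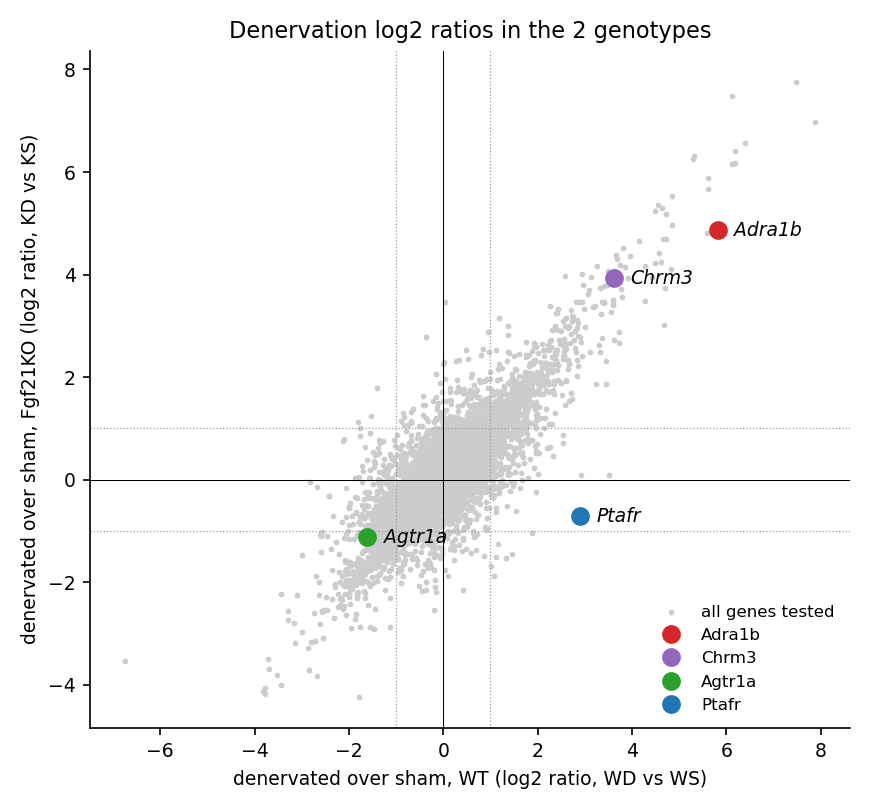
Denervated over sham log2 ratio in WT (x axis) and in Fgf21KO muscle (y axis) for the 13084 genes tested (grey), with the 4 receptor genes in colour and dotted lines at 2-fold. Adra1b and Chrm3 lie far into the upper right, Agtr1a in the lower left, and Ptafr at 2.89 in WT against -0.70 in Fgf21KO muscle.

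Levels of different genes were compared per kilobase of exon (GENCODE M21). In WS the order was Agtr1a (1.87 CPM per kb), Adra2b (0.365), Adra1a (0.247), Ptafr (0.0473), Chrm3 (0.0344) and Adra1b (0.0254). The last 3 had overlapping counting intervals, as did Adra2b and Adra1a. In WD it was Adra1b (2.56), Agtr1a (0.594), Chrm3 (0.544), Ptafr (0.472), Adra1a (0.154) and Adra2b (0.0992). Agtr1a, Chrm3 and Ptafr were not apart beyond counting error, nor were Adra1a and Adra2b. In KS, Agtr1a (1.72) was followed by Adra2b (0.377), Adra1a (0.228), Ptafr (0.185), Chrm3 (0.0538) and Adra1b (0.0498), and each of these last 5 overlapped its neighbour in the order, except that Ptafr and Chrm3 did not. In KD, Adra1b (2.04) was again first, followed by Chrm3 (0.982) and Agtr1a (0.777), whose intervals overlapped, and by Adra1a (0.337), Ptafr (0.107) and Adra2b (0.0805), of which the last 2 overlapped. Of the 6 genes compared, Adra1b thus passed from the lowest level per kilobase in both sham libraries to the highest in both denervated ones, although in each sham library its interval overlapped those of Chrm3 and Ptafr.

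**Figure D3:**
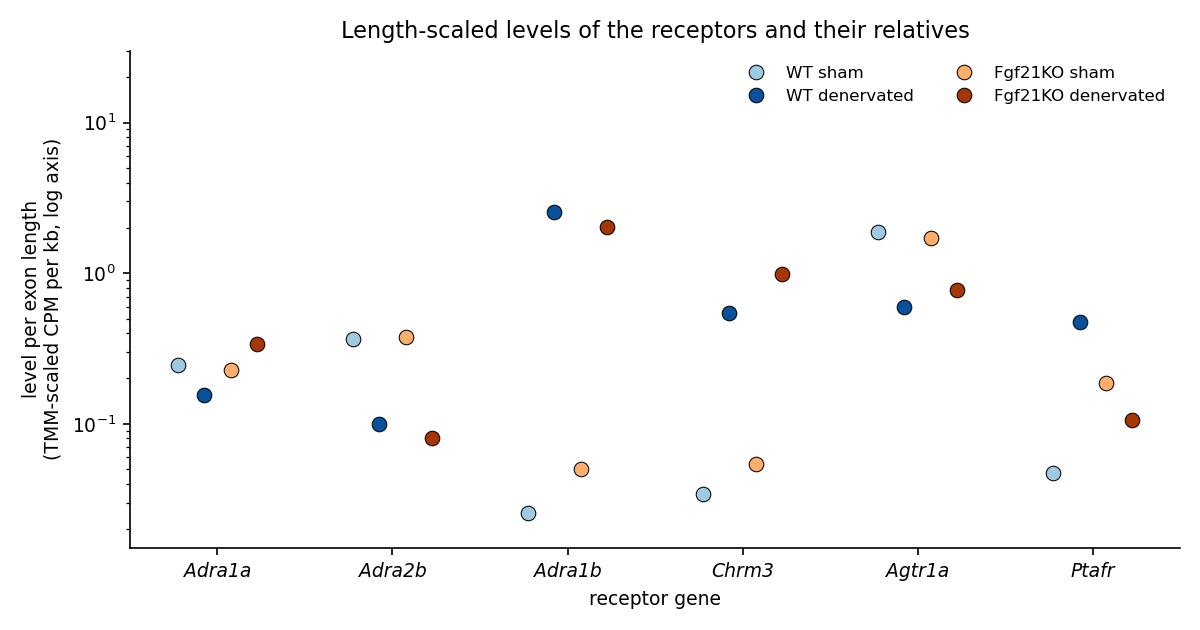
TMM-scaled CPM per kb of exon (log y axis) for the 4 receptor genes and their 2 adrenergic relatives (x axis), with 1 point per library. Adra1b runs from 0.0254 in WS to 2.56 in WD, while Agtr1a runs from 1.87 to 0.594.

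The relatives and the signalling partners of the receptors were tested in a model of surgery and genotype over the 4 libraries. The model treats the genotypes as replicates of each surgery (edgeR's quasi-likelihood test, Benjamini-Hochberg adjusted p below 0.05 and at least a 2-fold change). It leaves 1 residual degree of freedom, and nothing in it measures the spread between mice. Over all genes tested, 6.84% rose and 6.24% fell. The 4 receptor genes were left out of every count below, and the lists were written with earlier results of these data known.

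Besides Adra1b, 2 adrenergic receptors were analysed. Adra2b, a receptor that couples to Gi, fell, from 34 to 13 counts in WT and from 45 to 10 in Fgf21KO muscle (log2 fold change -2.04, adjusted p = 0.000169). Adra1a, the closest relative of Adra1b among the genes analysed, did not pass (adjusted p = 0.999). Its count went from 50 to 44 in WT and from 59 to 91 in Fgf21KO muscle, with log2 ratios of -0.65 in WT and 0.55 in Fgf21KO muscle. No other muscarinic receptor was among the genes analysed.

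In the angiotensin axis, 2 of 9 genes rose and 1 fell. Agt, the precursor of angiotensin II, fell from 340 to 117 counts in WT and from 376 to 93 in Fgf21KO muscle (log2 fold change -2.05, adjusted p = 9.39e-12). Atp6ap2, the prorenin receptor and a part of the vesicular proton pump, rose from 347 to 1536 and from 490 to 1631 counts (1.67, adjusted p = 6.11e-15). The other gene that rose was Agtrap, which binds the receptor and promotes its internalization (log2 fold change 1.07, adjusted p = 8.54e-10). The median log2 fold change of the list was -0.51, against 0.01 over all genes. Medians of the other receptor and signalling lists ran from -1.02 (adrenergic receptors) to 0.97 (transmitter-gated channels).

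In the platelet-activating factor axis, 1 of 9 genes rose and 1 fell, near the share over all genes. Pafah1b3, a catalytic subunit of an acetylhydrolase of the lipid, rose from 7 to 21 counts in WT and from 2 to 29 in Fgf21KO muscle (2.17, adjusted p = 0.00269), but DESeq2 gave it no adjusted p. Lpcat4, a lysophospholipid acyltransferase, fell from 46 to 29 and from 51 to 27 counts (-1.06, adjusted p = 0.0108), a call lost with DESeq2 and with total counts only.

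Among receptors for other amines, purines and amino acids, 7 were tested, 1 rose and 1 fell. The adenosine receptor Adora1, coupled to Gi, rose from 8 to 47 and from 8 to 37 counts (2.09, adjusted p = 0.000262). Adora2a, coupled to Gs, fell from 61 to 27 and from 78 to 39 (-1.34, adjusted p = 0.000891). Among peptide and lipid mediator receptors, 2 of 16 fell, namely S1pr3, a sphingosine 1-phosphate receptor (-1.43, adjusted p = 3.59e-08), and Calcrl, the calcitonin receptor-like receptor of vessels (-1.03, adjusted p = 1.39e-07). Calcrl did not pass with total counts only. Of 5 transmitter-gated channels, the ATP-gated P2rx4 rose (1.02, adjusted p = 0.0018), but did not pass with DESeq2. In all, 2 of 30 receptor genes rose (6.67%), a share near that of all genes, and 4 fell (13.3%).

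**Figure D4:**
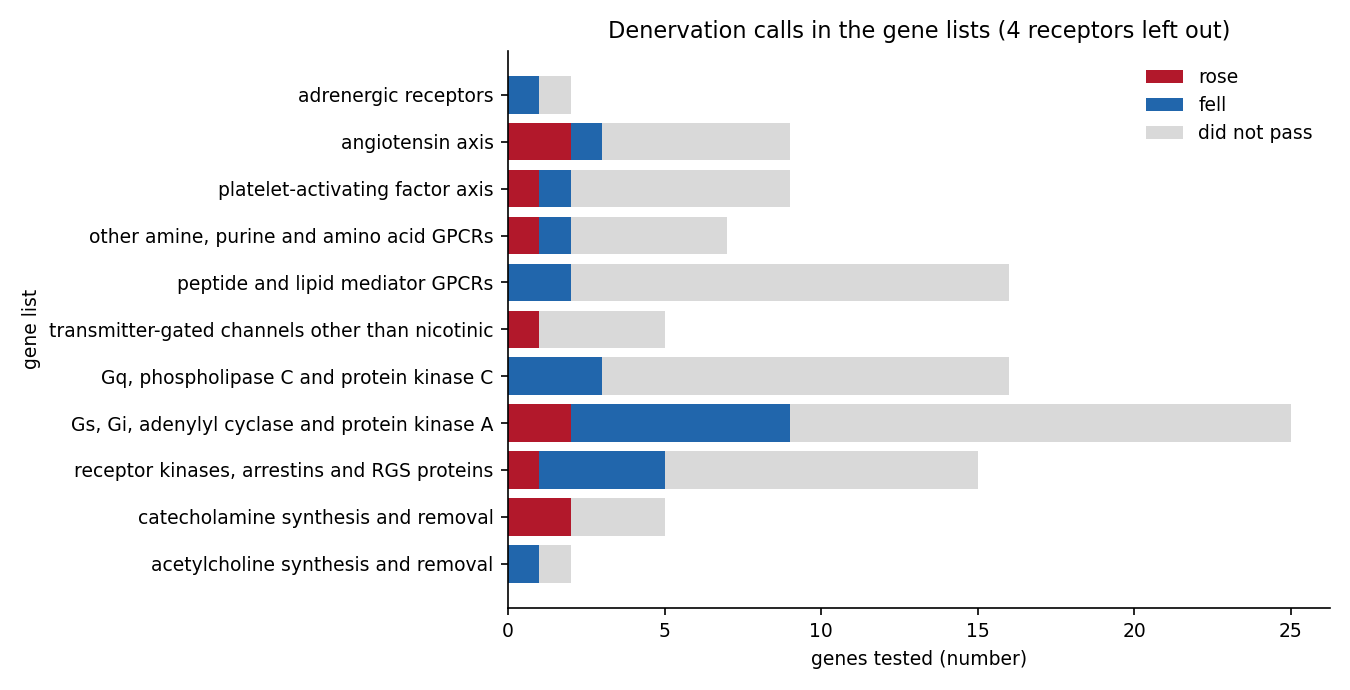
Number of genes tested (x axis) in each receptor and signalling list (y axis), split into those that rose, fell or did not pass in the model of surgery and genotype, without the 4 receptor genes. Over the 7 lists of signalling, synthesis and removal 8 genes rose and 17 fell with the TMM scaling drawn, against 14 and 8 with total counts only.

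Downstream of Gq, 3 of 16 genes fell and the other 13 did not pass. The genes that fell were the inositol trisphosphate receptors Itpr3 (-1.14, adjusted p = 1.99e-05) and Itpr1 (-1.12, adjusted p = 1.29e-10) and the protein kinase C gene Prkch (from 384 to 244 counts in WT and from 373 to 214 in Fgf21KO muscle, adjusted p = 5.25e-07). Prkch lay at the edge of the 2-fold threshold and missed it with a mean count of 50 or more. On the rising side Prkcq, another protein kinase C gene, lay just under the threshold (log2 fold change 0.98) and was named after its values were seen. All 3 calls were lost with total counts only, with which 1 gene of the list rose and 0 fell. In the Gs, Gi and protein kinase A list, 2 of 25 rose and 7 fell. The largest changes were those of Gnao1, a Gi-class alpha subunit (-2.08, adjusted p = 1.08e-10), the phosphodiesterase Pde4a (-1.70, adjusted p = 2.63e-17) and the adenylyl cyclase Adcy1 (-1.54, adjusted p = 2.50e-05).

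Among genes that switch receptors off, 1 of 15 rose and 4 fell. Arrb1, an arrestin that uncouples and internalizes receptors, fell from 805 to 244 counts in WT and from 716 to 273 in Fgf21KO muscle (-1.83, adjusted p = 3.14e-12). Rgs5 (-1.20, adjusted p = 1.51e-14) and Rgs3 (-1.06, adjusted p = 2.85e-07), which speed the inactivation of G proteins, also fell, but neither passed with total counts only. Over the 7 lists of signalling, synthesis and removal, 8 of 81 genes rose and 17 fell, and with total counts only 14 rose and 8 fell. Whether falling genes outnumbered rising ones in the lists therefore depended on the scaling. The background moved as well: of all 13084 genes, 895 rose and 816 fell, and with total counts only 1704 rose and 324 fell. Scaling by total counts only shifted the median denervation log2 ratio of all genes to 0.29 in WT and 0.36 in Fgf21KO muscle. It shifted the share of rising genes among all calls from 52.3% to 84.0%.

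For the ligands, catecholamine genes were few. The synthesis enzymes Th and Dbh were not among the genes analysed. Of 5 genes tested, 2 rose, namely Slc22a3, a transporter that takes up catecholamines (from 8 to 55 and from 16 to 71 counts, 2.16, adjusted p = 2.78e-05), and Ddc, a decarboxylase of their synthesis (from 4 to 27 and from 2 to 18 counts, 2.56, adjusted p = 0.000776), for which DESeq2 gave no adjusted p. For acetylcholine, Ache, the esterase that removes it at the endplate, fell from 1327 to 533 and from 1909 to 433 counts (log2 ratios of -1.80 and -2.19, adjusted p of the model = 2.13e-16). Bche, an esterase of wider substrate range that was named after its values were seen, had a log2 fold change of 0.03 and did not pass.

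Markers of other cells in the muscle moved as well, and in bulk RNA fewer cells of a type and less RNA per cell cannot be told apart. Of 9 vascular smooth muscle and pericyte markers, 8 fell, and their summed level was 1178 CPM in sham and 691 in denervated WT muscle, and 1091 and 686 in Fgf21KO muscle. Acta2 (-1.31, adjusted p = 8.06e-12), Kcnj8 (-1.30, adjusted p = 1.12e-10) and Notch3 (-1.30, adjusted p = 8.26e-11) fell most, and Rgs5 is counted here too. Of 6 endothelial markers, 3 fell, with list sums of 477 and 220 CPM in WT and 389 and 211 in Fgf21KO muscle. The genes that fell were the adhesion molecule Cdh5, the VEGF receptor Kdr and the receptor kinase Tie1. All 11 of these calls were lost with total counts only. Agtr1a moved with these lists, and the part of vessel cells in its lower level was not tested. The 6 fibro-adipogenic progenitor markers did not reach a 2-fold change in the model, and summed to 587 and 382 CPM in WT and 575 and 396 in Fgf21KO muscle.

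Of 9 macrophage markers, 3 rose, namely Cd68 (3.37, adjusted p = 1.35e-13), Adgre1 (1.31, adjusted p = 0.00238) and Mrc1 (1.13, adjusted p = 1.02e-07). Adgre1 did not pass with DESeq2, and with total counts only 8 rose. The summed level of the 9, on the TMM scale, was 32.8 CPM in sham and 74.4 in denervated WT muscle, and 36.9 and 73.0 in Fgf21KO muscle. The sum does not stand for each marker. In WD vs WS 6 of the 9 were at least 2-fold higher, and in KD vs KS 3 were, against 7.18% and 7.51% of all genes. Of the neutrophil markers, S100a9 and Csf3r were analysed, with sums of 0.904 and 1.38 CPM in WT and 0.404 and 0.873 in Fgf21KO muscle, and neither passed. S100a9 went from 9 to 30 counts in WT and from 9 to 17 in Fgf21KO muscle. The part of these cells in the Ptafr values was not tested. Of the Schwann cell markers, Mbp was analysed and did not reach a 2-fold change in the model, with levels between 11.4 and 18.3 CPM.

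**Figure D5:**
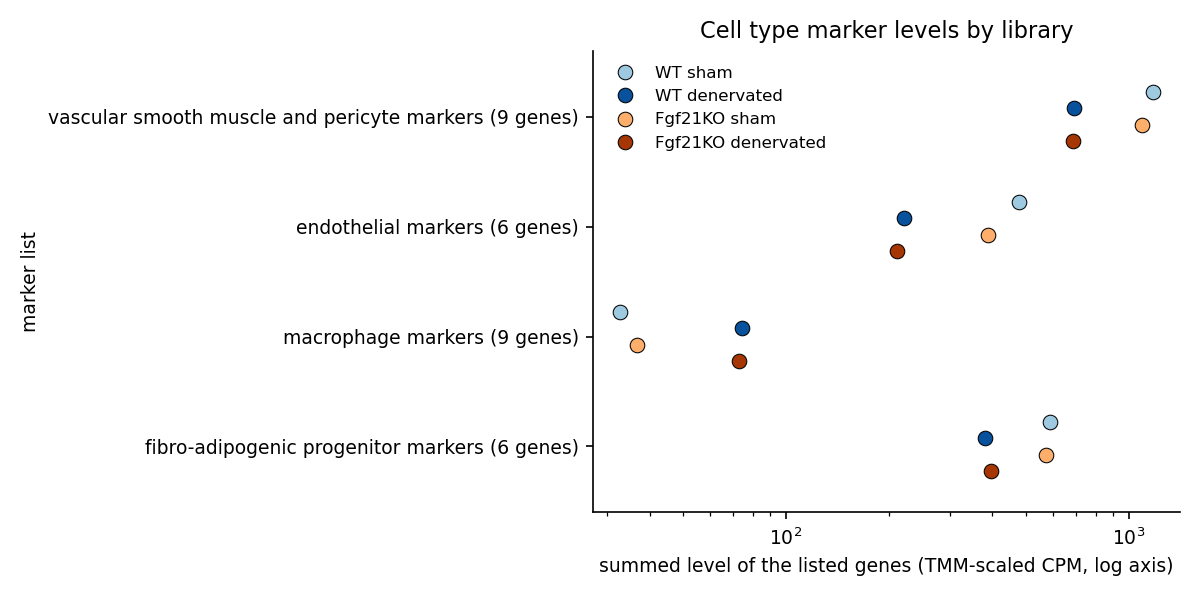
Summed TMM-scaled CPM (log x axis) of each cell type marker list with at least 5 genes analysed (y axis), with 1 point per library. Vascular, endothelial and progenitor sums are lower and macrophage sums higher in both denervated libraries.

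The genes whose pattern was most like each receptor were found by the Euclidean distance between log2 CPM profiles over the 4 libraries, each centred on its mean, among 11316 genes that averaged 50 counts or more. A distance over 4 libraries is a description and carries no p. Nearest to Adra1b was Cdkn1a, which encodes the cell cycle inhibitor p21 (distance 0.18 log2 units, from 175 to 11926 counts in WT and from 338 to 9971 in Fgf21KO muscle), followed by Sh3d19 (0.70) and the potassium channel Kcnk5 (0.78). Nearest to Chrm3 were Robo2, an axon guidance receptor (0.31), Slc9a9 (0.32) and Mapk4 (0.50). Agtr1a had the closest neighbours, H2-M3 (0.09), Gm11185 (0.10) and Tagln (0.13). Tagln encodes a smooth muscle cytoskeletal protein and is in the vascular marker list, with 594 and 307 counts in WT and 736 and 367 in Fgf21KO muscle. Of the genes searched, none lay close to Ptafr, whose nearest genes were Gm21992 (1.08), Whrn (1.17) and Zfp873 (1.25). Ptafr itself averaged fewer than 50 counts, so genes as thinly counted as Ptafr were not searched.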

How the data were processed

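The authors deposited raw read counts per gene from stranded mRNA libraries, listing genes with at least 1 read in each of the 4 libraries. The aligner and counter are not given in the sources used here, and the submitters' processing notes name GRCm39. A second table that the authors deposited is on a log2 scale. It is named for FPKM, but each value is the log2 of a scaled count plus 1, the scale being the same for every gene of a library (largest deviation 5.2e-07), so it carries no length correction. The factors were within 1.6% of those that give TMM-scaled CPM. Libraries were grouped by their titles.

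Genes averaging 10 counts or more (13084 of 13825) were scaled by TMM in edgeR 4.0.16 (R 4.3.3), with a prior count of 2 for log2 ratios. Counting intervals were exact binomial or conditional intervals (scipy 1.17.1). The surgery effect was tested by edgeR's quasi-likelihood test with genotype as covariate, over all genes (common biological coefficient of variation 0.0681). Tested on simulated data in which 200 of 13084 genes were given a 4-fold change, it recovered 98% and called 0 unchanged genes (medians of 3 draws). The simulated counts were drawn with the spread fitted to these same 4 libraries. They therefore cannot show how many calls in the real data arise from mouse variation or from the scaling. DESeq2 1.42.0, other scalings, filters, prior counts and the deposited log2 values were alternatives. Exon lengths and positions came from GENCODE M21.

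The receptors and gene lists were chosen with earlier results of these data known. Genes were named by a fixed rule: the 4 receptors and their subtype relatives, the 3 largest changes among genes passing in each list (or the 2 most counted where none passed), and the 3 nearest profiles. Col3a1 and Dcn fell under the second part, with log2 fold changes of -0.52 and -0.33. A total of 20 lists was used. A few genes are not reported here and were left out of the list counts.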

Additional observations from a re-analysis of the deposited data

Results flagged for a closer look

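Among the genes that the naming rule covers, 3 had denervation log2 ratios of opposite sign in the genotypes that lay at least 1 apart, and these differences were not tested, since each combination is 1 library. For Ptafr the log2 ratio of 2.89 in WT stood against -0.70 in Fgf21KO muscle (difference -3.59). For Adra1a it was -0.65 and 0.55, a difference of 1.20, or 1.24 in the conditional estimate (counting interval 0.44 to 2.04). For Csf3r, a neutrophil marker, it was -0.15 and 1.21, which differ by 1.36, and no library held over 15 counts.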

How the results depend on the processing

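No paired analysis was possible because a group holds 1 library only, in which animals are pooled, and for the same reason no replicate could be left out. The genotype term already sets each denervated pool against the sham pool of the same mice, as the methods describe them. Without that term, 865 genes rose and 802 fell. The other settings changed no direction of a receptor log2 ratio. The deposited log2 values, whose pseudocount of 1 shrinks low levels, gave smaller ratios: 3.14 and 2.74 for Adra1b in WD vs WS and KD vs KS, 1.84 and 2.40 for Chrm3, 1.20 and -0.96 for Ptafr in WD vs WS and KD vs WD, and -1.48 for the Ptafr difference between genotypes. With a mean count of at least 50, fewer genes were tested, and those at least 2-fold apart fell from 267 to 68 in KS vs WS and from 203 to 46 in KD vs WD. Of all genes, 895 rose and 816 fell with denervation, against 1704 and 324 with total counts only and 3476 and 3528 without a fold threshold. Receptor list genes that rose numbered 5 with total counts only, and 1 with DESeq2 or a mean count of at least 50, and without a fold threshold 9 fell. Signalling list genes that rose numbered 14 with total counts only, 5 with DESeq2 or a mean count of at least 50 and 17 without a fold threshold, and those that fell 8 and 40 with the first and the last. DESeq2 gave no adjusted p (NA) for 508 genes, 8 of them in these lists. Beyond the filter and threshold, the cause was not tested. At these depths, 3 counts correspond to 0.0919 to 0.129 CPM.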
